A study of Mus musculus with 4 samples.

Results

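The Eph receptors, ephrins, semaphorins, plexins and neuropilins are cell surface and secreted proteins that steer growing axons and migrating cells. The 51 genes described here were chosen by family name and not by their values, though with earlier results of these data known. All 51 were among the 21690 features of the deposited tables. They comprise 7 EphA and 5 EphB receptors, 5 ephrin-A and 3 ephrin-B ligands, 7 secreted semaphorins of class 3, 13 semaphorins of classes 4 to 7, 4 class A plexins, 5 other plexins and 2 neuropilins.

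Eph receptors are tyrosine kinases whose ligands, the ephrins, stay attached to the neighbouring cell. EphA receptors mainly bind ephrin-A proteins, which are held by a lipid anchor, and EphB receptors mainly bind ephrin-B proteins, which span the membrane, so that both cells of a contact can receive a signal. Class 3 semaphorins are secreted and mostly act through a neuropilin, which binds the ligand, and a class A plexin, which carries the signal into the cell, whereas most other semaphorins are bound to the membrane and engage plexins directly. In the developing nervous system these pathways commonly act by repulsion, keep domains of neural tissue apart and guide axons.

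RNA was sequenced from neural precursors derived from A2lox mouse embryonic stem cells that carried a construct for doxycycline-inducible knockdown of Geminin, an inhibitor of replication licensing. The 3 knockdown libraries came from independent experiments in which monolayer cultures in N2B27 medium received 500 ng doxycycline from day 3, and the 1 control library came from cells with the same construct grown without doxycycline (no Dox). All were collected on day 5 after earlier culture on feeder fibroblasts, and the labels describe the lines in use as A2lox and its clonal derivatives. The control has no replicate, no culture with doxycycline but without the construct was analysed here, and effects of the drug and of the knockdown therefore cannot be told apart. With 1 control for 3 independent experiments, differences between experiments cannot be told apart from these effects either. The unit is FPKM, a fragment count divided by exon length and by library depth, which allows levels of different genes to be set side by side.

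Gmnn, the gene of Geminin, was at 24.0%, 58.4% and 24.7% of the control in knockdown libraries 1, 2 and 3, and the authors' deposited tables marked it lower in libraries 1 and 3. Depth relative to the control, read from the steps in which low features change, was 1.00, 1.15 and 0.972. Markers of neural precursors (Sox1, Pax6, Nes, Hes5, Fabp7, Sox3 and Zbtb16) summed to 371, 465 and 368 FPKM in knockdown libraries 1, 2 and 3. Their sum in the control was 383 FPKM, and 0 of 7 were called. Hes5 varied more than this sum, with 6.28, 27.6 and 16.1 FPKM against 14.3. It was marked lower in library 1 (q = 0.000881 in the authors' deposited table). For neuron, pluripotent cell and epithelial markers, library 1 was nearer to the control than libraries 2 and 3 were. Neuron markers summed to 159, 577 and 292 FPKM against 148 (5 of 9 measured rose), pluripotent cell markers to 66.9, 306 and 502 against 46.2 (6 of 6 rose), and epithelial markers to 522, 59.9 and 169 against 469 (8 of 8 fell). Stmn2, the neuron marker with the highest control level, went the other way in libraries 2 and 3. It had 75.4, 44.6 and 40.5 FPKM against 66.9 and was marked lower in library 3. Fibroblasts served as the feeder layer of the earlier culture. Their markers summed to 29.7, 46.4 and 79.1 FPKM against 26.4, and 2 of 7 rose. Endothelial markers summed to 3.99, 5.08 and 8.27 FPKM against 3.93, with Pecam1 the 1 of 5 that rose and Emcn listed at 0 in all 4 libraries. Mesoderm markers summed to 2.86, 9.54 and 13.2 FPKM against 2.80. Tcf15 was the 1 of 5 that rose, at 0.420, 7.85 and 10.2 FPKM against 0.842. T lay below the control in every library, and 3 of the 5 lay above it in every library. Astrocyte and oligodendrocyte markers summed to 0.928, 5.52 and 3.61 FPKM against 0.874. Slc1a2 was the 1 of 5 that rose, at 0.709, 5.14 and 3.32 FPKM against 0.623. Olig1 was listed at 0 throughout. Mbp was also listed at 0, but with a failed status throughout, so its 0 is not a measured absence. Neural crest and endoderm markers had 0 of 5 called each, with sums of 27.7, 18.6 and 21.2 FPKM against 26.6 and of 55.1, 58.0 and 69.7 FPKM against 56.1, and Afp was listed at 0 throughout. Some markers could not be called. Those testable in at least 2 tables were 8 of 9 for neuron, 6 of 7 for fibroblast and 4 of 5 for endoderm. They were 3 of 5 each for endothelium and mesoderm, and 2 of 5 each for neural crest and for astrocyte and oligodendrocyte. The part of the marker shifts in the results below was not tested.

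**Figure D1:**
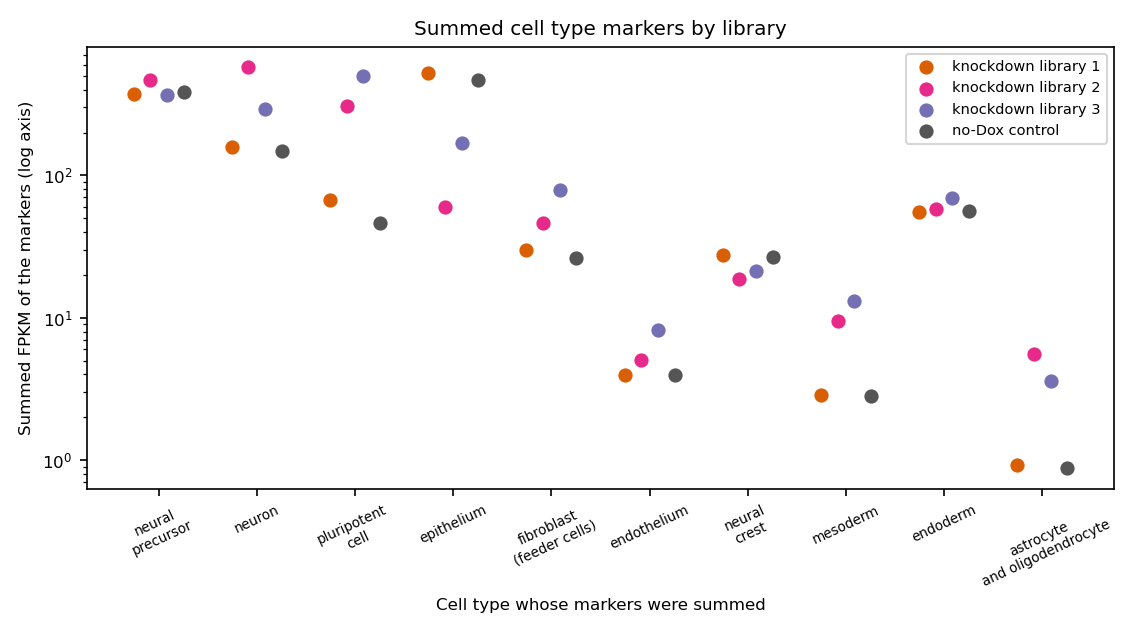
Summed FPKM (log axis) of the fixed markers of each cell type in the 3 knockdown libraries and the no-Dox control, 1 point a library. Epithelial markers were at 59.9 and 169 in knockdown libraries 2 and 3, against 522 in library 1 and 469 in the control, while neural precursor markers lay between 368 and 465 in all 4.

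Among the 51 genes, Epha7, Sema3e and Nrp2 were called as having fallen, each marked lower than the control in 2 of the 3 knockdown libraries. Plxna2, a class A plexin, was called as having risen, with higher marks in 2 of them. Epha7 is a receptor of ephrin-A ligands, Sema3e a secreted semaphorin and Nrp2 a neuropilin. A gene was called where the authors' deposited tables, each of 1 knockdown library against the control, gave it significant marks of the same direction for 2 or more of the 3 pairs, the study's stated rule, and no opposite mark for the remaining pair. Of the 47 members with usable tests in at least 2 tables, 3 fell (6.38%) and 1 rose (2.13%), beside 0.905% and 1.98% of all 14477 such features. Epha7 and Sema3e were marked in libraries 2 and 3, while Nrp2 and Plxna2 were marked in libraries 1 and 2. The calls thus come from 2 different pairs of libraries, no member was marked in all 3 tables, and without library 2 no member would be called, where 0.0829% of all features rose and 0.159% fell. Another count took a difference of at least 1 log2 unit in 2 tables, with 1 added to each FPKM. By it, Sema3e was the 1 of 47 that fell (background 0.981%) and 0 of 47 rose (2.14%). The added 1 shrinks the ratios of low genes. Without it, the log2 ratios in libraries 2 and 3 were -2.03 and -1.12 for Sema3a and 1.91 and 1.22 for Plxna4. Library 2, in which all 4 called members were marked, had Gmnn at 58.4% of the control, unmarked. Library 1, with Gmnn at 24.0%, had Epha7 at 105% and Sema3e at 106%, while Nrp2 and Plxna2 were marked there. A relation of the calls to the Gmnn level was not tested. In bulk RNA, fewer cells of a type and less RNA per cell cannot be told apart in any of these values.

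A further 11 members carried a mark without being called, so that 15 had at least 1. In library 1 the authors' deposited table marked 1 of 47 testable members higher and 4 lower, beside 0.909% and 1.52% of all testable features. In library 2 it marked 3 of 47 higher and 7 lower (background 3.23% and 2.02%), and in library 3 it marked 2 of 45 higher and 4 lower (background 3.33% and 1.28%). Ephb2 and Sema5b were marked lower in library 1 and higher in library 2, a conflict of direction seen in 0.256% of all features. The median standard error that the deposited p-values imply for a member's log2 ratio was 0.18 in library 1, against 0.37 and 0.34 in libraries 2 and 3, so a smaller difference was marked in library 1.

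Ratios on the log2(FPKM + 1) scale, knockdown over control, had a median over the 47 members of -0.13, 0.03 and -0.10 in libraries 1, 2 and 3, beside -0.0035, 0.015 and 0.0058 over all 14477 features. In size, regardless of sign, the members' median log2 ratio was 0.17, 0.38 and 0.38, beside 0.12, 0.20 and 0.19 over all features. A log2 ratio of at least 0.5 in size was found for 3, 19 and 16 of the 47 members. That is 6.38%, 40.4% and 34.04%, against 4.48%, 17.6% and 16.8% of all features. The added 1 shrinks the ratios of low features, and these comparisons were not matched for level. A mean of at least 1 FPKM was reached by 44 of the 47 members and by 12118 of all 14477 features. Among the 3 libraries, library 1 was nearest to the control for 29 of the 47 members (61.7%, and 52.7% of all features). All 3 knockdown libraries lay below the control for 15 of the 47 members and above it for 5, where 22.1% and 22.0% of all features did so. Because every ratio uses the same control library, an unusual control value would move all 3 at the same time.

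**Figure D2:**
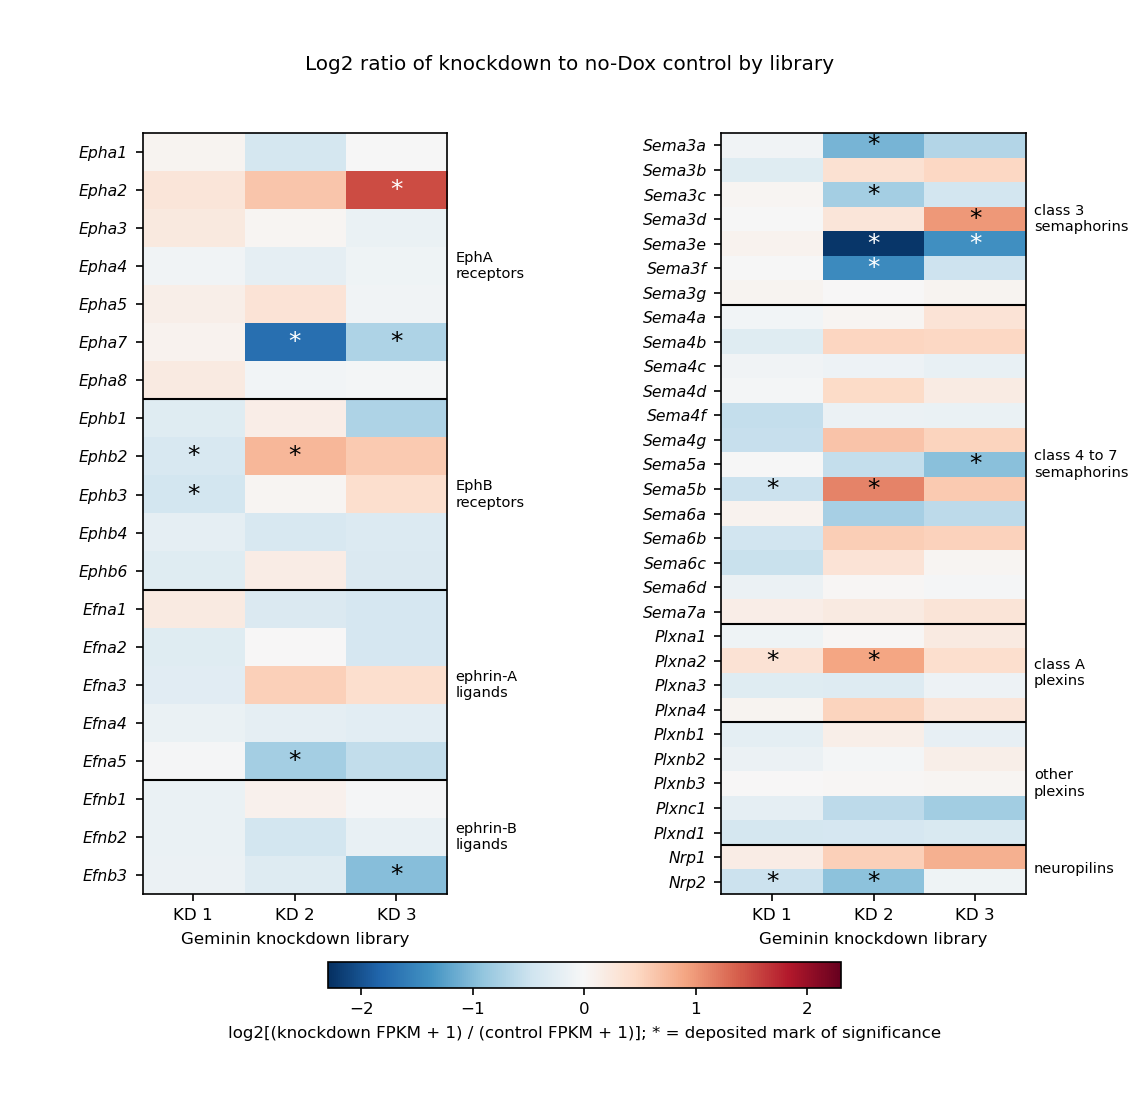
Log2 ratio of knockdown to control, with 1 added to each FPKM, for all 51 members (rows, by role) in knockdown libraries 1, 2 and 3 (columns, KD). Asterisks are the authors' marks; the darkest cells are Sema3e at -2.24 and Epha7 at -1.74 in library 2, and library 1 is pale throughout.

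The start regions of the 4 called genes are shown to set the members that fell beside the member that rose. RefSeq windows (GRCm38.p6) run from 250 bases before the transcription start to 50 bases after it, 5′ to 3′ on the coding strand. Capitals mark the GC box GGGCGG or its complement CCGCCC, a motif bound by Sp1 family factors, with overlapping matches run together. Epha7 has 2 windows and the first listed is shown.
Epha7, chr4:28812881-28813180, plus strand: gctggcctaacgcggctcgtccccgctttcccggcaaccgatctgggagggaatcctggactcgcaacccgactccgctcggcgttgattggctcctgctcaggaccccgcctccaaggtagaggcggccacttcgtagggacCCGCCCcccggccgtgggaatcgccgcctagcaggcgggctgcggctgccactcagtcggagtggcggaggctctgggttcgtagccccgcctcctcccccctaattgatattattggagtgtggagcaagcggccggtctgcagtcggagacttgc
Sema3e, chr5:14025026-14025325, plus strand: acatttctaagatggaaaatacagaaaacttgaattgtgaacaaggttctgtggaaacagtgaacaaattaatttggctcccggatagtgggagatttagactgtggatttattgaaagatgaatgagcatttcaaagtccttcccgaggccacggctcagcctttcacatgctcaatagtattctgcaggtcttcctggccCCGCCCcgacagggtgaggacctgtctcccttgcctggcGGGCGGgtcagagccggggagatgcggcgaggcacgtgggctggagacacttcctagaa
Nrp2, chr1:62703067-62703366, plus strand: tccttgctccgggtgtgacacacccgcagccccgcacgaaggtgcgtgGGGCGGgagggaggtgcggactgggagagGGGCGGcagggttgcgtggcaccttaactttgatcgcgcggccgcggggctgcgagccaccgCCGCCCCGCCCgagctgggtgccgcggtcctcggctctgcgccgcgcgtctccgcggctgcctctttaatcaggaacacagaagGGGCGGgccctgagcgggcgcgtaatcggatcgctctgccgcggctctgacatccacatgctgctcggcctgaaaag
Plxna2, chr1:194619579-194619878, plus strand: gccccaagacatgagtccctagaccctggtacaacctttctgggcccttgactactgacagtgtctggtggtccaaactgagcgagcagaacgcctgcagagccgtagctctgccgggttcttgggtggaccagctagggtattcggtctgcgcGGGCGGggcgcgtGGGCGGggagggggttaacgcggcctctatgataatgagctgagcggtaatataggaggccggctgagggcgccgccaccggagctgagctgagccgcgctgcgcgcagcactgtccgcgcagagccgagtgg
All 4 windows hold a GC box, with 1 match in Epha7, 2 in Sema3e, 5 in Nrp2 and 2 in Plxna2, and so do 34 of the 45 members that have a window in the table (75.6%), against 35.6% of all 32817 windows, which include those of noncoding genes. Sema3e stands lowest of the 4 in CG dinucleotides, with 11, against 28 in Epha7, 37 in Nrp2 and 25 in Plxna2, where the median was 23 over members and 7 over all windows. The E-box CANNTG, the general motif of basic helix-loop-helix factors and the same on both strands, occurs in Sema3e 84 bases before and 23 bases after the start and in Nrp2 27 bases after it, and not in these windows of Epha7 and Plxna2. It occurs in 22 of the 45 member windows (48.9%) and in 72.3% of all windows. These are descriptions of letters, not of factor binding.

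Epha4 and Epha7 were the most abundant EphA receptors. Epha7, which acts with ephrin-A5 in closure of the mouse neural tube, lies on chromosome 4 from 28740294 to 28894649 (mm9). Its FPKM was 56.7, 15.4 and 32.4 in knockdown libraries 1, 2 and 3, against 53.7 in the control, a knockdown mean of 34.8 ± 20.7 (SD, n = 3). Library 1 was close to the control, whereas libraries 2 and 3 fell to 28.6% and 60.4% of it, and the authors' deposited tables gave q-values of 0.783, 0 and 0.00319, where 0 is the value listed. Epha4, which binds both ephrin classes, had 46.0, 42.2 and 45.2 FPKM against 48.7. All 3 libraries were slightly below the control and none was marked. The intervals that the deposited p-values imply allow 83.8% to 107%, 64.6% to 116% and 70.9% to 122% of the control for Epha4 in libraries 1, 2 and 3, so a moderate difference in libraries 2 and 3 was not detectable.

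Epha2, a receptor of ephrin-A1 that is also expressed in mouse embryonic stem cells, ran the other way. It had 10.9, 14.3 and 26.9 FPKM in knockdown libraries 1, 2 and 3, against 8.85 in the control. All 3 knockdown libraries were above the control, and library 3, at 304% of it, was the 1 that was marked (q = 6.87e-07 in the authors' deposited table). Fibroblast markers were at 113%, 176% and 300.1% of the control in libraries 1, 2 and 3 and pluripotent cell markers at 145%, 662% and 1085%, so both were also highest in library 3, and their part in the Epha2 values was not tested. The remaining EphA receptors were low. Epha1 had 1.44, 0.779 and 1.34 FPKM against 1.35, and Epha3 had 1.497, 1.20 and 0.919 against 1.14. Epha5 and Epha8 were below 0.4 FPKM in every library, and Epha8 was never testable. Summed over the 7 genes, EphA receptors came to 117, 74.3 and 107 FPKM in libraries 1, 2 and 3 against 114, but without Epha7 the sums were 60.3, 58.9 and 74.5 against 60.2. The lower EphA sum in library 2 was therefore that of Epha7.

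No EphB receptor was called. Ephb2, which has roles in commissure formation and at synapses, had 12.02, 27.4 and 24.2 FPKM in knockdown libraries 1, 2 and 3, against 15.7 in the control. Library 1 lay below the control and libraries 2 and 3 above it, with q-values of 0.0472, 0.0293 and 0.109 in the authors' deposited tables. Ephb3, a close relative with overlapping roles, had 14.8, 20.7 and 26.7 FPKM against 20.1, and was marked lower in library 1 only (q = 0.0108 in the authors' deposited table). For both genes the 3 knockdown libraries straddled the control, so the groups overlap. Ephb4, the receptor of ephrin-B2 in vessels, had 18.4, 16.4 and 17.01 FPKM against 21.5, below the control in every library with no mark. Ephb1 had 3.26, 4.76 and 2.14 FPKM against 4.15, and Ephb6, which lacks kinase activity, had 3.01, 4.48 and 2.88 against 3.88. Neither was marked, and both lay on either side of the control. The 5 EphB receptors together came to 51.6, 73.8 and 72.9 FPKM against 65.4, which is 78.9%, 113% and 112% of the control.

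Among the ligands, no ephrin was called, and the summed level was lower than the control in each library for both classes. The 5 ephrin-A genes summed to 48.6, 45.4 and 42.6 FPKM in knockdown libraries 1, 2 and 3, against 53.7, and the 3 ephrin-B genes to 101, 96.2 and 93.5 against 112. Efna5, the ephrin-A with the highest control level and a ligand of Epha7, had 19.9, 11.4 and 13.4 FPKM against 20.3. It was marked in library 2 (q = 0.0188 in the authors' deposited table) and not in library 3 (q = 0.118), at 56.3% and 65.9% of the control. Receptor and ligand were thus both lower in libraries 2 and 3 than in library 1 and the control. Without Efna5 the ephrin-A sums were 28.7, 33.96 and 29.2 FPKM against 33.3.

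Efnb2, the most abundant of the 8 ephrins and a ligand of EphB receptors and Epha4, had 48.4, 40.2 and 48.2 FPKM against 54.1, below the control in all 3 libraries without a mark. Efnb1, whose gene is on the X chromosome, had 30.4, 36.4 and 33.4 FPKM against 33.9, and its knockdown mean was 33.4 ± 3.00 (SD, n = 3). Efnb3, a midline ligand of the mouse spinal cord, had 22.2, 19.7 and 11.9 FPKM against 24.4. It was below the control in every library and was marked in library 3 (q = 0.00756 in the authors' deposited table), at 48.8% of the control. Efna4 had 11.7, 11.3 and 10.98 FPKM against 13.2, Efna2 had 10.6, 13.2 and 9.83 against 13.1, Efna3 had 4.48, 8.58 and 7.56 against 5.55, and Efna1 had 1.82, 0.948 and 0.871 against 1.45. None of these was marked, and their intervals were wide in libraries 2 and 3, reaching from 71.6% to 334% of the control for Efna3 in library 2.

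**Figure D3:**
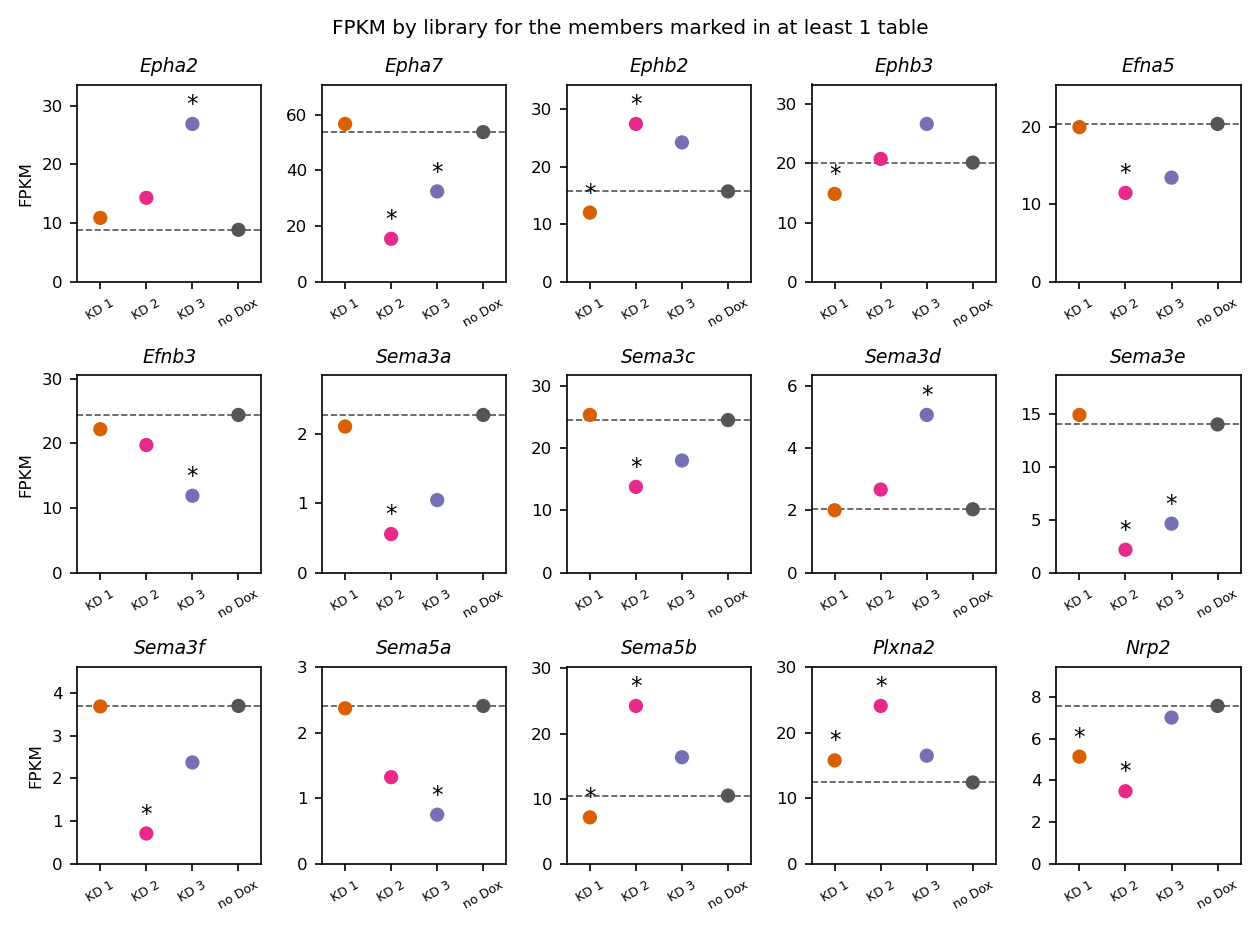
FPKM in knockdown libraries 1, 2 and 3 (KD) and in the no-Dox control for the 15 members that at least 1 table marked, each on its own axis from 0. The dashed line is the control and asterisks are the authors' marks; Sema3e was at 2.18 and 4.64 in libraries 2 and 3, against 14.9 in library 1 and 14.0 in the control.

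Class 3 semaphorins held the member with the lowest log2 ratio, -2.24 for Sema3e in library 2, and the most marked members of any group, 5 of 7. Sema3e, which binds Plxnd1 without needing a neuropilin, lies on chromosome 5 from 14025275 to 14256689 (mm9). It had 14.9, 2.18 and 4.64 FPKM in knockdown libraries 1, 2 and 3, against 14.0 in the control, a knockdown mean of 7.25 ± 6.77 (SD, n = 3). Libraries 2 and 3 fell to 15.5% and 33.1% of the control, while library 1 stood at 106%, and the authors' deposited tables gave q-values of 0.815, 3.45e-11 and 1.81e-06. The mean therefore describes none of the 3 libraries well. Plxnd1, its receptor, had 2.42, 2.45 and 2.54 FPKM against 3.497, between 69.1% and 72.7% of the control in each library and without a mark.

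Sema3c was the most abundant member of the class, and it binds both neuropilins. It had 25.3, 13.8 and 18.0 FPKM in knockdown libraries 1, 2 and 3, against 24.5, and was marked in library 2 (q = 0.0236 in the authors' deposited table). Sema3a, the repulsive ligand of Nrp1, had 2.10, 0.556 and 1.05 FPKM against 2.27, with a mark in library 2 (q = 0.0157 in the authors' deposited table). Sema3f, a ligand of Nrp2, had 3.69, 0.708 and 2.37 FPKM against 3.70, again with a mark in library 2 (q = 0.00503 in the authors' deposited table). These 3 genes shared the order of Sema3e, with library 1 near the control, library 3 lower and library 2 lowest, but were not called. Sema3d ran the other way, at 2.01, 2.67 and 5.07 FPKM against 2.04, and was marked higher in library 3 (q = 0.024 in the authors' deposited table). Sema3b, at 5.39, 8.91 and 9.79 FPKM against 6.73, was unmarked, and Sema3g was listed at 0 in library 2 and in the control and was below 0.05 FPKM in the others.

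Summed over the 7 genes, class 3 semaphorins came to 53.5, 28.8 and 41.0 FPKM in libraries 1, 2 and 3 against 53.3, which is 100%, 54.1% and 76.9% of the control. Without Sema3e the sums were 38.6, 26.6 and 36.3 FPKM against 39.2, so the lower level of library 2 did not rest on Sema3e alone. Epithelial markers were lower in the same libraries, at 59.9 and 169 FPKM against 469, and their part in these values was not tested.

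Some members lie near each other on the genome, and a relation of position to their values was not tested. Sema3d, Sema3a, Sema3e and Sema3c lie in that order within 4.85 Mb of chromosome 5, a stretch that holds 15 features of the tables. In library 2, Sema3a, Sema3e and Sema3c were all marked lower, at 24.5%, 15.5% and 56.3% of the control, and Sema3d was unmarked at 131%. In library 3, Sema3d was at 249% of the control while Sema3a, Sema3e and Sema3c were at 46.0%, 33.1% and 73.5%. Sema3b and Sema3f lie 72.3 kb apart on chromosome 9 and were at 132% and 19.1% of the control in library 2. Efna1, Efna3 and Efna4, within 66.3 kb of chromosome 3, were at 65.3%, 155% and 85.3% in that library, none of them marked.

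No member of classes 4 to 7 was called, and these mostly membrane-bound proteins were not lower as a sum in libraries 2 and 3. The 13 genes came to 54.0, 83.4 and 71.3 FPKM in knockdown libraries 1, 2 and 3, against 64.3, which is 84.1%, 130% and 111% of the control. Sema5b, which repels axons through class A plexins in the mouse retina, had 7.12, 24.2 and 16.4 FPKM against 10.5. It was marked lower in library 1 and higher in library 2, with q-values of 0.00866, 0.000573 and 0.183 in the authors' deposited tables, so it meets no call and its libraries straddle the control. Without Sema5b the sums were 46.9, 59.2 and 54.9 FPKM against 53.8. Sema5a, its close relative, had 2.38, 1.32 and 0.750 FPKM against 2.41, with a mark in library 3 (q = 0.00715 in the authors' deposited table). The pair therefore lay on opposite sides of the control in libraries 2 and 3. A small nucleolar RNA, Snord123, lies within Sema5a in the tables.

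Sema4c, the most abundant of the group in the control and in library 1, had 15.2, 14.8 and 14.2 FPKM against 16.1, with a knockdown mean of 14.7 ± 0.479 (SD, n = 3). Its 3 knockdown libraries were closely spaced and just below the control, without a mark. Sema4b and Sema4g were below the control in library 1 and above it in the others, at 4.204, 7.84 and 7.71 FPKM against 5.28 and at 2.42, 6.72 and 6 against 3.92. Sema4d, the ligand of Plxnb1, had 6.62, 9.68 and 7.93 FPKM against 6.86, and Sema4f had 1.31, 2.12 and 2.06 against 2.40. None of these was marked, and Sema4a, below 1 FPKM in every library, was never testable.

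In class 6, whose members bind class A plexins, Sema6a had 5.84, 2.84 and 3.30 FPKM against 5.50, Sema6d had 5.31, 6.05 and 5.79 against 5.89, Sema6c had 2.31, 4.88 and 3.88 against 3.71, and Sema6b had 0.468, 1.92 and 1.85 against 0.982. Sema6a was lower in libraries 2 and 3 and the last 2 genes were lower in library 1, all without a mark. Sema7a, a lipid-anchored ligand of Plxnc1 and of integrins, was above the control in all 3 libraries at 0.547, 0.606 and 0.719 FPKM against 0.399, also unmarked.

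Plxna2, a receptor for class 3 and class 6 semaphorins, was the member that rose. It lies on chromosome 1 from 196446022 to 196643062 (mm9) and had 15.8, 24.1 and 16.5 FPKM in knockdown libraries 1, 2 and 3, against 12.4 in the control. Every knockdown library was above the control, at 127%, 194% and 133% of it, with q-values of 0.018, 0.000864 and 0.365 in the authors' deposited tables. The knockdown mean was 18.8 ± 4.61 (SD, n = 3). Libraries 1 and 3 had nearly the same ratio, yet the mark fell on library 1, where the implied error is smaller. The intervals that the deposited p-values imply were 112% to 145%, 143% to 263% and 101% to 175% of the control.

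The other class A plexins were not called. Plxna1 had 29.2, 32.2 and 36.6 FPKM against 31.4, Plxna3 had 4.96, 4.87 and 5.69 against 6.24, and Plxna4 had 0.234, 0.697 and 0.433 against 0.186. Plxna1 straddled the control, Plxna3 lay below it and Plxna4 above it in all 3 libraries. Class A plexins summed to 50.2, 61.9 and 59.3 FPKM against 50.3, and without Plxna2 to 34.4, 37.8 and 42.8 against 37.9. Plxnb2, the most abundant plexin, had 33.9, 35.9 and 40.9 FPKM against 37.1, and Plxnb1, the receptor of Sema4d, had 21.6, 27.8 and 22.0 against 25.2. Neither had a mark. Plxnc1, the receptor of Sema7a, was below the control in every library at 2.39, 1.57 and 1.22 FPKM against 2.89, unmarked, and Plxnb3 was listed at 0 in library 1 and in the control and was below 0.03 FPKM elsewhere. No plexin outside class A carried a mark.

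The 2 neuropilins lay on different sides of the control. Nrp2, the receptor component for Sema3f, lies on chromosome 1 from 62749890 to 62865266 (mm9) and had 5.14, 3.48 and 7.02 FPKM in knockdown libraries 1, 2 and 3, against 7.58 in the control. Libraries 1 and 2 fell to 67.6% and 46.0% of the control (q = 0.0235 and 0.036 in the authors' deposited tables), whereas library 3 was at 92.8% and had too little data for a test there. The control value of Nrp2 differed by more than 0.1% between tables, as it did for Sema4f among the members. Nrp1, the receptor component for Sema3a, had 1.39, 2.12 and 2.76 FPKM against 1.13. It was above the control in all 3 libraries and unmarked, with q-values of 0.762, 0.53 and 0.138 in the authors' deposited tables. In library 2 Nrp2 and its ligand Sema3f were both low, at 46.0% and 19.1% of the control, while in library 1 Nrp2 was marked and Sema3f was at 99.7%.

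**Figure D4:**
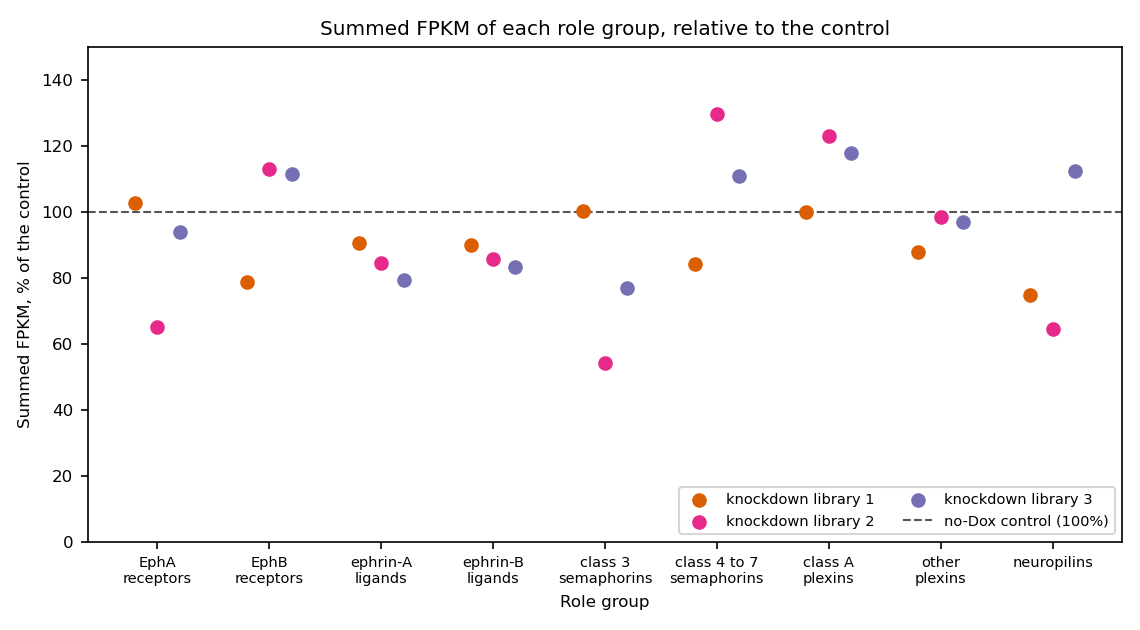
Summed FPKM of the members of each role group in knockdown libraries 1, 2 and 3, as a percentage of the sum in the no-Dox control (dashed line, 100%), 1 point a library. Class 3 semaphorins stood at 54.1% and classes 4 to 7 at 130% in library 2, and both ephrin classes lay below 100% in every library.

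A fixed list of receptor partners and intracellular effectors of these pathways was read by the same rule. Its counts of called genes are too small to set it apart from all features. Of 69 such genes measured, 68 were testable in at least 2 tables, and Cntn2 and Dpysl3 rose, none fell and 67 were not called, beside the background of 1.98% and 0.905%. Cntn2, an axonal adhesion molecule, had 0.344, 7.19 and 4.82 FPKM in knockdown libraries 1, 2 and 3, against 0.591 in the control. Dpysl3, of the collapsin response mediators that act downstream of semaphorin signals, had 31.9, 61.4 and 51.8 FPKM against 29.3. In both genes libraries 2 and 3 were high, while in library 1 Dpysl3 was at 109% of the control and Cntn2 at 58.2% of it. Summed neuron markers were also high in libraries 2 and 3, at 577 and 292 FPKM against 148, though Stmn2 was lower there. The part of neuron markers in these calls was not tested. Without library 2 or without library 3 neither gene would be called. Dpysl4 had 16.9, 45.9 and 23.1 FPKM against 18.9, and Crmp1, of the same family, had 34.9, 53.0 and 35.0 against 31.3, both with a mark in library 2 of the authors' deposited tables. The 5 genes of this family summed to 193, 302 and 248 FPKM against 200, and the other 64 genes to 99.3%, 96.3% and 101% of the control. Their log2 ratios had a median of -0.01, 0.04 and 0.13 over all 69.

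Tested across libraries with limma, which sets the 3 knockdown libraries against the lone control and uses the spread between knockdown libraries as error, no member passed. Of the 44 members tested, 0 had a Benjamini-Hochberg adjusted p under 0.05 and 0 an unadjusted p under 0.05, beside 0.155% and 1.32% of all 12243 features. The lowest adjusted p of a member was 0.993 by limma. Gmnn, the target of the knockdown, had a log2 change of -1.59, a limma p of 0.0475 and a limma adjusted p of 0.993. The target thus did not pass after adjustment either, so 0 of 44 does not show that the members were unchanged. Plxna2 had a log2 change of 0.54 with a standard error of 0.29, Nrp2 one of -0.51 with 0.38, Epha7 one of -0.79 with 0.73 and Sema3e one of -1.19 with 0.95. The SD of the 3 log2 ratios was 0.32 for Plxna2, 0.42 for Nrp2, 0.91 for Epha7 and 1.18 for Sema3e. It was below the size of the change for Plxna2 and Nrp2, barely so for Sema3e, and above it for Epha7. All libraries were above the control for Plxna2 and below it for Nrp2, whereas those of Epha7 and Sema3e lay on either side. Without library 2 the mean log2 ratios were 0.35 for Plxna2, -0.29 for Nrp2, -0.32 for Epha7 and -0.67 for Sema3e, and without library 1 they were -1.23 for Epha7 and -1.83 for Sema3e. The 7 members outside this test had a mean below 1 FPKM.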

How the data were processed

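RNA was measured in 4 libraries, 3 of Geminin knockdown and 1 control, which per the labels shared 1 lane of an Illumina HiSeq2000. Per the submitters' processing notes the authors used TopHat, Cufflinks and Cuffdiff with mm9. Not given in the sources used here are their versions and the annotation. The deposited tables hold FPKM for both libraries of a pair. They also hold a Cuffdiff p-value, and a q-value and natural log of control over knockdown that were treated as a score, since the deposited q-value exceeds 1 in places and the log is capped where a value is 0. A mark is a q-value below 0.05 where Cuffdiff gave the status OK. Any pair of tables agreed on the control FPKM to 0.1% for 90.7% to 91.1% of features, and each ratio uses the control value of its own table. The files hold no counts, so only relative depth is known. It rests on features too low to test, and 84.8% to 87.9% of their ratios could be written with whole reads (at most 12, tolerance 0.2%).

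Log2 ratios used a pseudocount of 1. Standard errors were taken from the deposited natural log ratio and p-value of each table, and intervals are 95%. They cover the variance that Cuffdiff assumed for 2 libraries, not differences between cultures. limma 3.58.1 in R 4.3.3 was run with a trended prior on features that no table lists as failed, if their mean FPKM reached 1. Its trial on simulated data used larger changes and a smaller spread between libraries than the called members had. That trial therefore does not show whether changes of their size could be detected here. limma assumes that the lone control varies as the knockdown libraries do. With 3 libraries against 1, the smallest p of an exact permutation test is 0.25 (one-sided) or 0.5 (two-sided), and this test was left out. Symbols in the lists were matched by name, or through the RefSeq table for 1 partner and 2 markers, and 1 neuron marker was not analysed here. Values in all 4 libraries are given for marked members, for members with a mean log2 ratio of at least 1 in size and for the most abundant of each group. Many others are given as well, chosen after their values were seen. The members, lists and tests were chosen with earlier results of these data known. Alternatives were another pseudocount, other filters, a stricter q-value, a fold rule, centring, an untrended prior and leaving out each knockdown library.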

Additional observations from a re-analysis of the deposited data

How the results depend on the processing

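The calls depend on which libraries are kept, since 2 marked tables are needed. Leaving out a knockdown library in turn gave 0 to 1 members that rose, against 1 with all, and 0 to 2 that fell, against 3. Without library 1 Epha7 and Sema3e fell, where 1.88% of all features rose and 0.829% fell. Without library 2 no member was called (0.0829% and 0.159%), and without library 3 Plxna2 rose and Nrp2 fell (0.0829% and 0.152%). Of the partners, 2 rose without library 1 and 0 without library 2 or library 3, and 0 fell in each case. At a q-value under 0.01, 0 members rose and 2 fell (Epha7 and Sema3e), beside 1.11% and 0.642% of all features. A difference of 1 log2 unit or more in 2 tables, with 1 added to each FPKM, was also used in place of the marks. Then 0 members rose and 1 fell (Sema3e), beside 2.14% and 0.981% of all features, and 1 partner rose (Cntn2). A filter at a mean FPKM of at least 1 left every member and partner count as it was.

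By limma 0 members were called in each of the 7 alternatives run, with 0 at an unadjusted p under 0.05, except that without library 1 there were 6 (Efna5, Ephb2, Plxnc1, Sema3a, Sema3e and Sema6a), beside 10.2% of all features, at a lowest adjusted p of 0.448. Under a pseudocount of 0.1 and under centring the mean log2 ratios of the 15 marked members moved by less than their spread between libraries. With 1 of 3 libraries left out a mean cannot move by more than that spread, so its range is given instead. It was -1.23 to -0.32 for Epha7, -1.83 to -0.67 for Sema3e, -0.71 to -0.29 for Nrp2, 0.35 to 0.64 for Plxna2 and 0.05 to 0.87 for Sema5b. Ephb3, with a mean of 0.0045, was at -0.19 to 0.21, and centring turned it to -0.0040; the other 14 kept their sign in every setting. No paired analysis was possible because the groups share only 1 replicate number. The single control limits every comparison, and of the 7 members with a mean below 1 FPKM none was marked.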
